A study of Mus musculus with 6 samples.

Results

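The mitochondrial ribosomal proteins were taken as every gene of the tag table whose symbol is Mrpl or Mrps followed by a number, leaving out pseudogenes, with the sense tags of all its RefSeq records summed. The rule used names only and found 76 genes, 47 named for the large subunit (Mrpl) and 29 for the small subunit (Mrps), among 26535 features, of which 18988 carry 1 symbol and the others are rows that several genes share. All 76 had at least 1 tag in every library. RNA was profiled by massive analysis of cDNA ends (MACE), which reads 1 tag near the 3′ end of each polyadenylated transcript, so that a level counts transcripts and is not divided by gene length. The 6 libraries came from cerebellum, hippocampus and liver of C57BL/6 mice aged 6 months, homozygous for an Atxn2 knockout or wild type, with 1 pool of 3 animals for each genotype and tissue. Ataxin-2, the protein that Atxn2 encodes, binds RNA and associates with the cytosolic translation machinery, and the study looked for expression changes shared by the 3 tissues.

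Mitochondria carry their own ribosome, which translates the few messages of the mitochondrial genome, all of them for subunits of the respiratory chain and the ATP synthase. Its rRNAs come from the mitochondrial genome, while every one of its proteins is encoded in the nucleus, made on cytosolic ribosomes and imported. Many of these proteins descend from those of bacteria, and the others are found in mitochondrial ribosomes alone. Tissues differ in how many mitochondria they hold, and defects in single members cause respiratory chain disease.

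The labels do not state which part of Atxn2 was deleted, and they do not say whether the same animals gave all 3 tissues. Tags in genes numbered 1774523 to 2727523 per library. Atxn2 had 0, 1 and 2 tags in knockout cerebellum, hippocampus and liver against 167, 194 and 115 in wild type. Xist had 0 tags in each knockout library and 34 to 87 in each wild-type library, so sex and genotype cannot be told apart. The 8 hepatocyte markers summed to 155307 and 172943 CPM (tags scaled to 1000000 per library) in liver, as the label says. In hippocampus they summed to 290 CPM for the knockout and 1375 for the wild type, with none of the 8 at 0. The mitochondrial genome gave 9.31% to 12.9% of all tags, with the higher share in the knockout in each tissue. In tissue pieces like these, fewer cells of a type and less RNA per cell cannot be told apart.

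Each member was first placed by its level, given as CPM after TMM scaling (trimmed mean of M values, which sets the typical feature equal between libraries) and averaged over the 6 libraries. The median member stood at 47.9 CPM, and 68 of the 76 reached at least 10 CPM in every library. The most abundant was Mrpl12, at 174 CPM, which forms the flexible stalk that recruits translation factors. Mrpl52 followed at 169 CPM, a protein without a bacterial counterpart, and then Mrps24 at 153 CPM, which lines the path by which the message enters the small subunit. Mrpl51, Mrpl14 and Mrps21 lay close together at 130, 130 and 129 CPM. The order among these 6 rests on the liver libraries. In wild-type cerebellum Mrpl48, a protein of the central protuberance, stood at 148 CPM, above Mrpl12 at 85.9 CPM.

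At the lower end, Mrps27, an RNA-binding protein of the small subunit, and Mrpl2 both averaged 13.9 CPM. Mrpl9 averaged 12.5 CPM, Mrpl21 10.4 CPM and Mrpl44, which carries a fold related to RNase III, 10.2 CPM. Mrps18b had the lowest value, 1.41 CPM from 15 tags in all libraries together. That value and the one of Mrpl9 are uncertain. A further 349 tags, 95.9% of all that matched Mrps18b, stood in a row shared with the predicted gene Gm13552, and 85.9% of those that matched Mrpl9 stood in 34 shared rows. In every other member at most 3.3% of the tags were shared. Without Mrps18b the highest level was 17 times the lowest on this scale of transcripts.

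**Figure D1:**
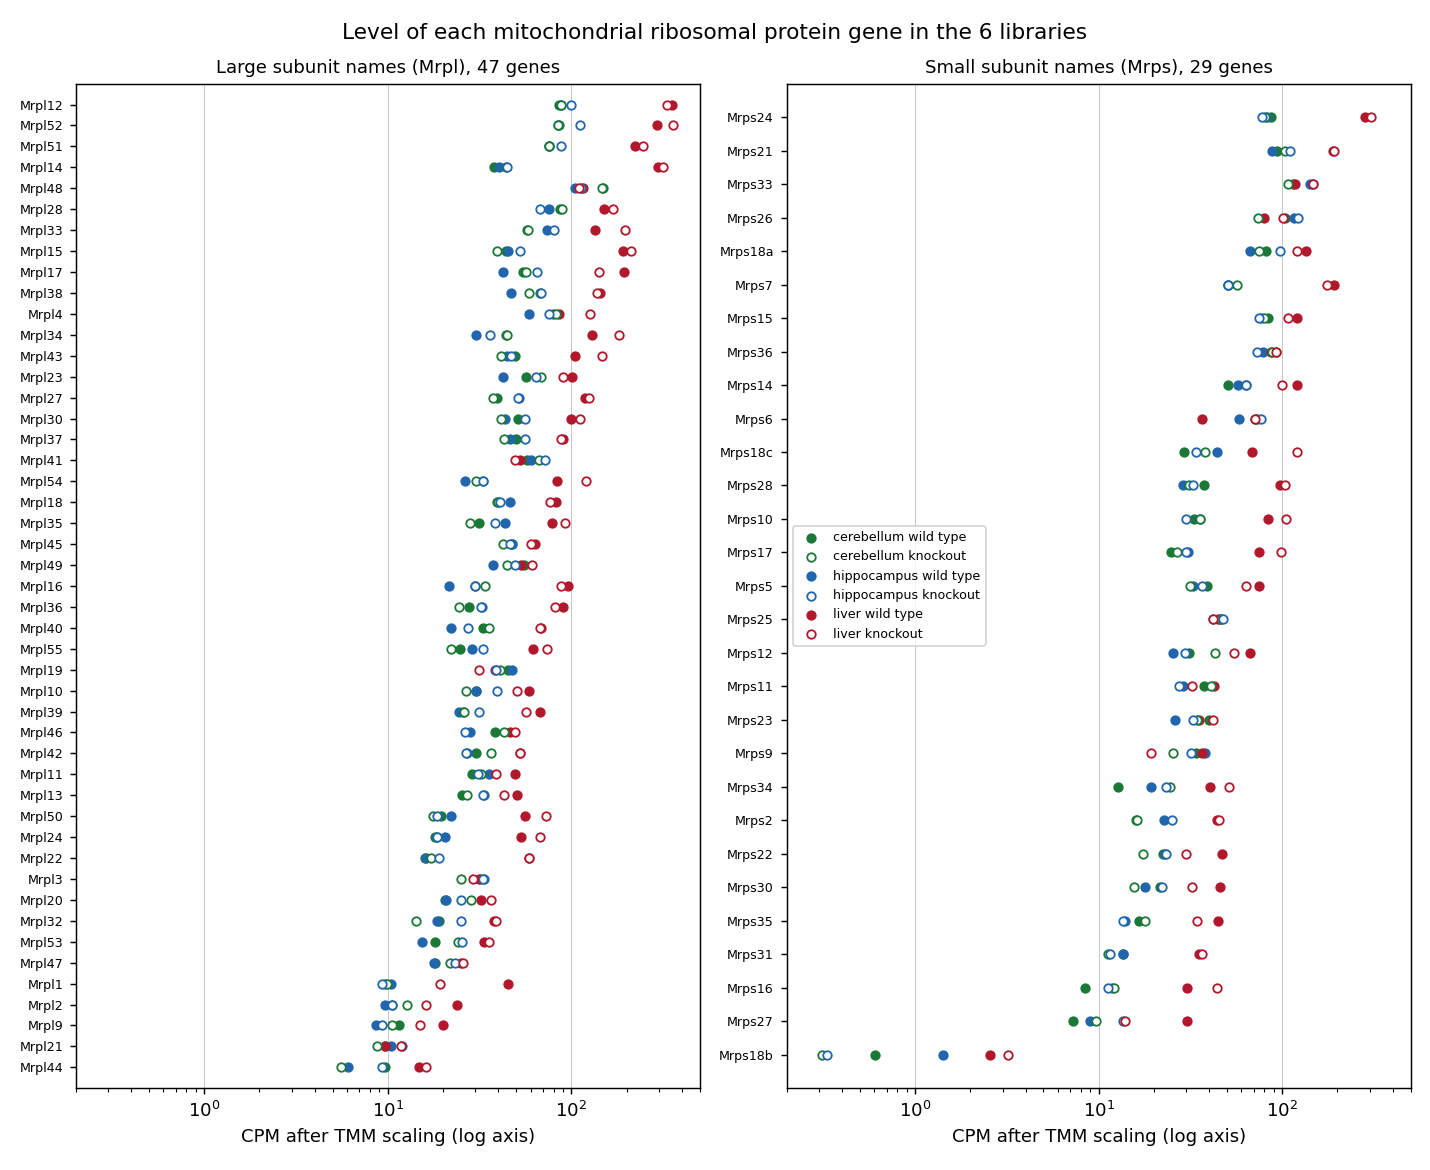
Level of each member in each of the 6 libraries (CPM after TMM scaling, log axis), with large subunit names on the left and small subunit names on the right, ordered by mean level. Filled points are wild type and open points knockout, with 1 library per point. In most rows the red liver points stand to the right of the 4 brain points, while for Mrpl19, Mrpl41 and Mrps6 they do not.

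Liver was compared with the mean of the brain tissues, cerebellum and hippocampus, in 1 edgeR quasi-likelihood fit over 13118 features with genotype as a block. Mrps18b did not pass the low-count filter, which left 75 members. With TMM scaling, 58 of the 75 were higher in liver and 1 was lower at a Benjamini-Hochberg adjusted p under 0.05, where 33.9% of all features were higher and 36.3% were lower. The median member was 0.94 higher in liver on the log2 scale, and the median of all features was -0.16. For 62 members both liver libraries lay above all 4 brain libraries, as for 35.5% of all features, and for Mrpl19 and Mrpl41 both lay below, as for 36.7% of all features. With 2 libraries per tissue, a p measures agreement between the knockout and the wild-type pool.

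The direction of this difference depends on what is held equal. Scaled to library totals, with no such correction, 10 members were higher in liver and 29 lower, with 16.7% and 66.4% of all features, and the median member was -0.30 while the median of all features was -1.39. By library totals, the members summed to 3673 CPM (knockout) and 3799 CPM (wild type) in liver and to 4015 to 4533 CPM in the 4 brain libraries. After TMM scaling these sums were 7002 and 6657 CPM in liver and 3076 to 3411 CPM in brain. In the pairs of values that follow, the knockout precedes the wild type. Relative to the median of all features, the median member stood higher in liver by 1.10 with TMM and by 1.09 with library totals. The order of the members among themselves does not rest on the scaling.

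The large subunit protein Mrpl14 stood furthest to the liver side. It sits where the subunits meet and is the docking site of the factor that keeps immature subunits apart. Cerebellum gave 43.8 and 37.7 CPM for Mrpl14, hippocampus 44.7 and 40.5, and liver 314 and 297. Both liver libraries lay far above all 4 brain libraries, which differed little from each other. The fitted difference was 2.82 ± 0.14 (log2, SE; adjusted p = 1.89e-14 in edgeR), and with library totals it was 1.57 (adjusted p = 5.56e-09). Mrpl15, a core protein of the large subunit, had cerebellar values of 39.5 and 44.3 CPM, hippocampal values of 52.7 and 45.1, and liver values of 210 and 192. Mrpl34, one of the smallest large subunit proteins in bacteria, stood at 44.7 and 44.3 CPM (cerebellum), 36.1 and 30.1 (hippocampus) and 181 and 130 (liver). Their fitted differences were 2.09 and 1.94, and with library totals 0.84 and 0.69, so these members were higher in liver under both scalings.

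Among the 5 proteins of the stalk and the neighbouring GTPase-associated region, 4 were higher in liver with TMM, while with library totals 2 were higher and 3 lower. Over all features, 33.9% were higher with TMM, and 16.7% were higher and 66.4% lower with library totals. For Mrpl12, cerebellum gave 88.2 and 85.9 CPM, hippocampus 99.4 and 87.4, and liver 332 and 353. Its difference was 1.87 ± 0.14 (log2, SE; adjusted p = 3.74e-11 in edgeR) with TMM and 0.63 with library totals. With TMM, Mrpl10, which anchors Mrpl12 to the ribosome, differed by 0.76 and Mrpl11, at the foot of the stalk, by 0.44, the latter with an adjusted p of 0.0571 in edgeR. The remaining proteins of the region, Mrpl53 and Mrpl54, differed by 0.71 and 1.65. Mrpl12 thus differed by more than Mrpl10 and Mrpl11 but by little more than Mrpl54, and the differences between these members were not tested.

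Of the 7 members around the exit tunnel, through which the new chain leaves, 5 were higher in liver with TMM, against 33.9% of all features. Mrpl22 had cerebellar values of 17.1 and 16 CPM, hippocampal values of 18.9 and 16.1, and liver values of 59.1 and 58.5, a fitted difference of 1.74. Mrpl24 differed by 1.60 and Mrpl39 by 1.18. Mrpl45, which tethers the ribosome to the inner membrane, differed by 0.37 with an adjusted p of 0.064 in edgeR, and Mrpl47 by 0.30 with an adjusted p of 0.278. With library totals 1 of the 7 was higher in liver and 3 were lower, against 16.7% and 66.4% of all features. The central protuberance, which contacts the tRNAs, had 5 of its 6 members higher with TMM and 2 of 6 lower with library totals. Mrpl48 was the exception with TMM. Cerebellum gave 146 and 148 CPM for it, hippocampus 113 and 104, and liver 110 and 115, so the liver libraries lay at the level of hippocampus (-0.22, adjusted p = 0.212 in edgeR).

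In the small subunit, 6 of the 8 members along the message path and the decoding site were higher in liver with TMM (33.9% of all features). With library totals 2 were higher and 2 lower, against 16.7% and 66.4% of all features. Mrps24 stood at 80.5 and 86.5 CPM (cerebellum), 77.8 and 83.1 (hippocampus) and 306 and 281 (liver). Its exons share 226 bases on the same strand with Urgcp, which had 31 to 255 tags per library. Mrps7, at the exit of the message, had cerebellar values of 56.9 and 50.9 CPM, hippocampal values of 51 and 50.5, and liver values of 175 and 191. For Mrps24 and Mrps7 the fitted differences were 1.78 and 1.76, and with library totals both were still higher in liver, by 0.53 and 0.51. Mrps12, the protein of the decoding site that carries streptomycin resistance mutations in bacteria, differed by 0.92 with TMM and by -0.33 with library totals. Mrps9, whose tail reaches the tRNA of the growing chain, had cerebellar values of 25.5 and 33.8 CPM, hippocampal values of 31.8 and 38, and liver values of 19.3 and 36.6. Its wild-type liver library lay inside the range of the brain libraries and its knockout liver library below it.

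Mrps6 was the 1 member lower in liver with TMM. For this protein of the small subunit's platform, cerebellum gave 73 and 71.1 CPM, hippocampus 76.8 and 58, and liver 70.9 and 36.6. The wild-type liver library was the lowest of the 6, and the knockout liver library lay among the brain libraries. The difference of -0.50 ± 0.20 (log2, SE; adjusted p = 0.0294 in edgeR) did not pass without the genotype block (adjusted p = 0.0711) or with DESeq2 (adjusted p = 0.213). With library totals Mrps6 was lower by 1.74. In the annotation its exons share 305 bases on the same strand with the predicted gene Gm49711 and 159 with Slc5a3, which had 1 to 36 tags per library.

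Several members were no higher in liver. Mrpl41 and Mrpl19, both of the large subunit, differed by -0.35 (adjusted p = 0.0861 in edgeR) and -0.36 (adjusted p = 0.114). Mrpl41 stood at 66.2 and 57 CPM (cerebellum), 71.9 and 60.2 (hippocampus) and 49.4 and 52.7 (liver). Mrps26 differed by -0.26, Mrps33 by 0.00 and Mrps36 by 0.05. Mrps36 is now known as a subunit of the 2-oxoglutarate dehydrogenase complex, in spite of its name. By contrast Mrps30 and Mrps18a, which structures place in the large subunit, were higher by 0.97 and 0.63 with TMM. The names of the subunits did not divide the members, since the median difference was 0.94 for the 47 Mrpl and 0.93 for the 28 Mrps genes tested. It was 0.94 for the 46 tested homologues of bacterial proteins and 0.87 for the 28 proteins specific to mitochondria.

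**Figure D2:**
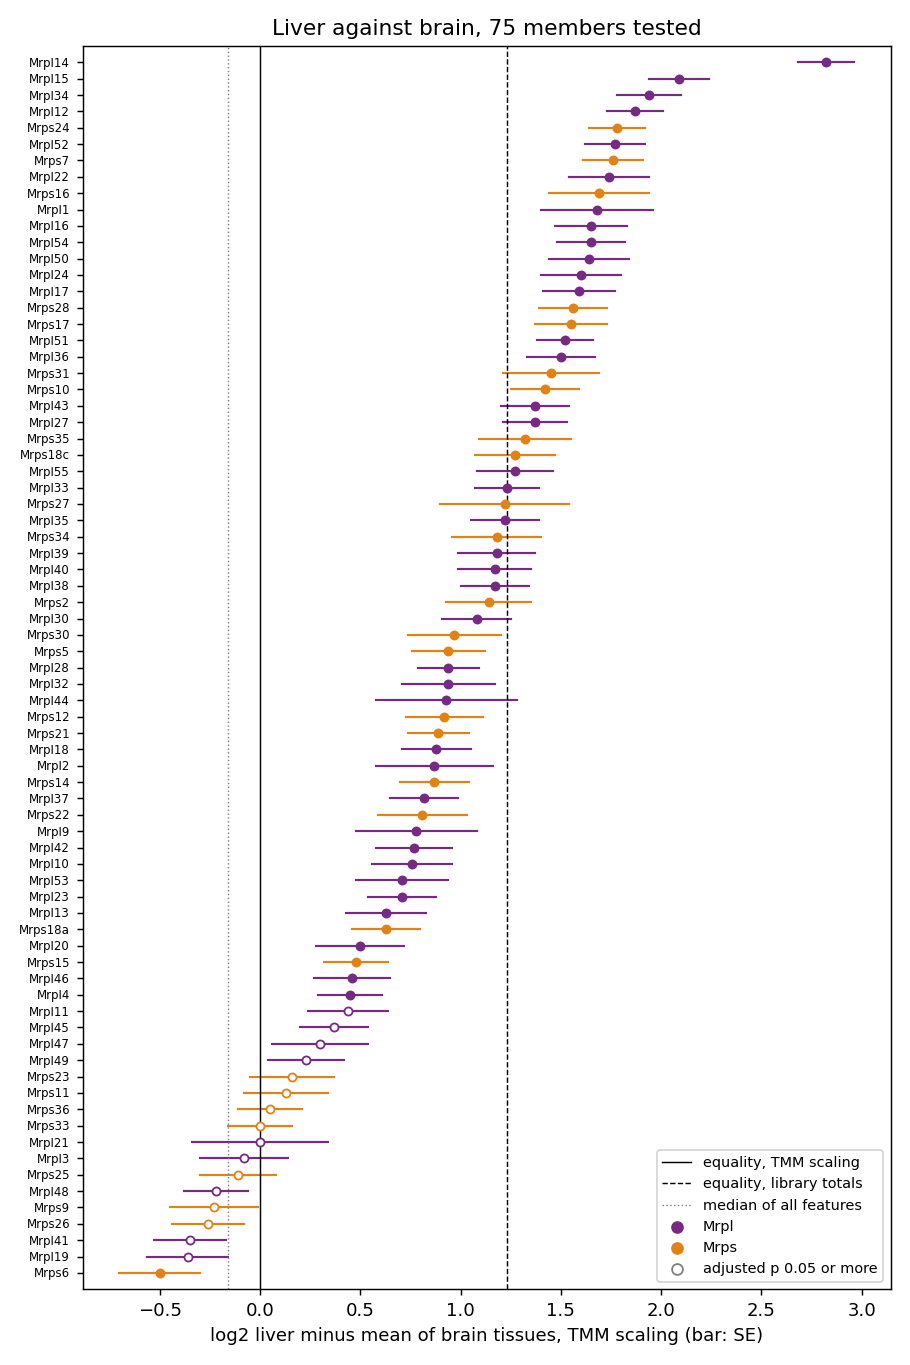
Difference between liver and the mean of the brain tissues for the 75 members tested (log2, TMM scaling, bars are 1 SE), in order, with filled points at an adjusted p under 0.05. The solid line marks equality with TMM, the dashed line equality with library totals and the dotted line the median of all features (-0.16); points run from -0.50 (Mrps6) to 2.82 (Mrpl14), and all but 6 lie right of the dotted line.

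To show what lies upstream of members from both ends of this order, the 150 bases before the start of transcription are given for Mrpl14, Mrpl34 and Mrpl12, from the liver side, and for Mrps6, Mrpl41 and Mrps26, from the other side. Mrpl15 (2.09) and Mrpl19 (-0.36) also stood at these ends, but no upstream sequence was found for them in the set used. They come from RefSeq on GRCm38.p6, run 5′ to 3′ on the strand of the gene and end at the base before the start. Capitals mark a match on either strand to 1 of the 8 motifs searched: the ETS core CCGGAAG, the full palindromic NRF1 site, the shorter NRF1 core TGCGCA, the YY1 site AAGATGGCG, the Sp1 box GGGCGG, the CCAAT box, the E-box CACGTG and the TATA box TATAAA.
Mrpl14 (chr17:45686199-45686348, plus strand): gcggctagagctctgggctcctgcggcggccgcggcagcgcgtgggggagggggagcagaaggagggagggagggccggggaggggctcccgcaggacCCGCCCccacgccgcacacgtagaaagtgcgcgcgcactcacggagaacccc
Mrpl34 (chr8:71464776-71464925, plus strand): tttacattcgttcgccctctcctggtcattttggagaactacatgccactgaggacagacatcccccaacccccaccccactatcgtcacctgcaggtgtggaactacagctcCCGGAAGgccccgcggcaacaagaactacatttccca
Mrpl12 (chr11:120484487-120484636, plus strand): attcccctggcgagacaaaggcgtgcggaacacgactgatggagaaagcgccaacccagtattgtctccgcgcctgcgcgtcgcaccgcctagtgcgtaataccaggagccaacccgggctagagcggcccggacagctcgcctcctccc
Mrps6 (chr16:92058186-92058335, plus strand): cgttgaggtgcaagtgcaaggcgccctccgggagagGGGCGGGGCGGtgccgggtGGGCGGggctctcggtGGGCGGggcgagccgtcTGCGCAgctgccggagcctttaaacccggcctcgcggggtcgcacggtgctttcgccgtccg
Mrpl41 (chr2:24975099-24975248, minus strand): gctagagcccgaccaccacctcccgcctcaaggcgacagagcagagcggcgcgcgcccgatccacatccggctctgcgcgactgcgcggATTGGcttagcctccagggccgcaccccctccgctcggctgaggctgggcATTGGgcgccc
Mrps26 (chr2:130563607-130563756, plus strand): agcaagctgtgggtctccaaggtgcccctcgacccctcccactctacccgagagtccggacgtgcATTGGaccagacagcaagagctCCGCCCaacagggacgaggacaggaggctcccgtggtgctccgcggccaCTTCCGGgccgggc

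The 3 members shown from the liver side shared no motif among these. Mrpl14 held 1 Sp1 box, Mrpl34 held 1 ETS core and Mrpl12 held none of the 8. Mrps6 held 4 Sp1 boxes and an NRF1 core, Mrpl41 held 2 CCAAT boxes, and Mrps26 held an ETS core, an Sp1 box and a CCAAT box.

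Over all members, windows from 250 bases before to 50 after the start were found for 67 of the 76, in 73 windows. ETS proteins include GABP, also called NRF2, which with NRF1 is known for driving nuclear genes of mitochondria. The ETS core stood in 32.9% of the members' windows, in 8.86% of all 32851 windows and in 11.6% of the 21263 windows of protein-coding genes. The NRF1 core stood in 27.4% against 9.74% of the protein-coding windows, the full NRF1 site in 4.11% against 1.33% and the YY1 site in 11% against 1.83%. The Sp1 box (52.1% against 46.2%) and the CCAAT box (41.1% against 38.2%) were nearer to the protein-coding windows, the E-box stood in 9.59% against 7.84%, and the TATA box stood in 6.85% against 12.6%. The members' windows also held a median of 21 CpG dinucleotides against 13, and 58.3% G or C against 56.3%. With TMM, the median liver difference was 0.92 for the 24 members with an ETS core and 0.94 for the 43 without one. It was 0.88 with an Sp1 box and 1.02 without, 0.87 with a CCAAT box and 1.14 without, and 1.55 for the 5 members with a TATA box and 0.93 for the 62 without. Mrps18b had no fitted difference and enters none of these medians. It is counted among the 24 with an ETS core and the 62 without a TATA box. The differences between these medians were not tested. The match to letters is a description of the windows and not of binding.

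**Figure D3:**
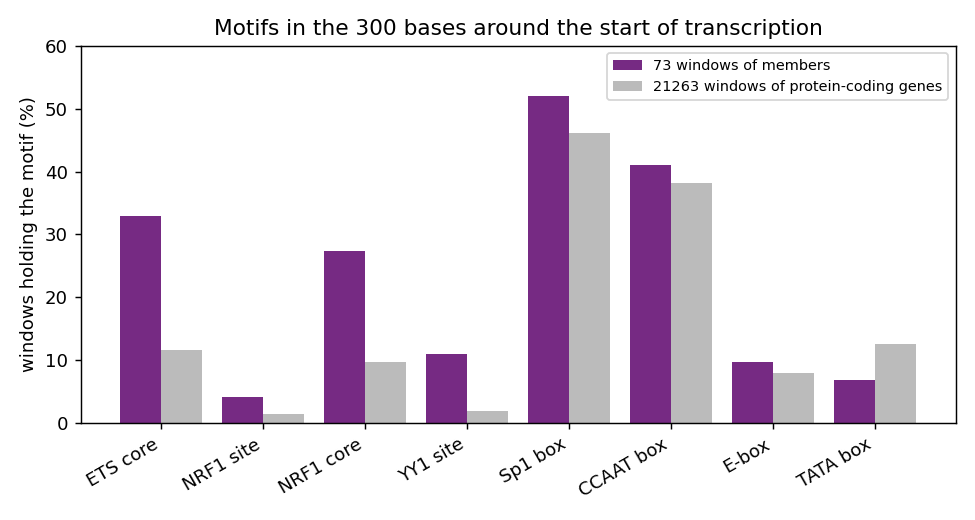
Share of windows of 300 bases around the start of transcription that hold each motif on either strand (percent), for the 73 windows of members and the 21263 windows of protein-coding genes. The ETS core (32.9% and 11.6%), the NRF1 core (27.4% and 9.74%) and the YY1 site (11% and 1.83%) show the widest gaps, and the TATA box is the 1 motif with the lower bar for members.

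Members lie on 17 chromosomes, with 10 on chromosome 11, 8 on chromosome 17, 7 on chromosome 6 and 6 on chromosome 7. Genes with a close start on the opposite strand were then counted, leaving out pairs that overlap, such as Mrpl46 and Mrps11. In 17 of the 76 (22.4%), against 6.78% of all protein-coding genes, another such gene starts within 1000 bases on the opposite strand, running away. Both genes were tested in 15 of these pairs. In 13 the member was higher in liver with TMM, against 33.9% of all features. The partner was also higher in 5 of the 13, lower in 3 and not past the threshold in 5. Mrpl32 starts 75 bases from the proteasome gene Psma2, and the genes differed by 0.94 and 0.88. Mrps12 starts 172 bases from Sars2, the mitochondrial seryl-tRNA synthetase, with differences of 0.92 and 0.81. Mrpl51, 100 bases from the condensin gene Ncapd2, differed by 1.52 while Ncapd2, with a mean of only 3.78 CPM, differed by -2.14. Mrpl41 differed by -0.35 and Pnpla7, which starts 935 bases away, by 5.09. A close start therefore did not come with a shared difference between tissues in all pairs. Of the partners named, Ncapd2 is limited by its low level, and Pnpla7 starts further away than any other partner.

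Cerebellum and hippocampus were compared in the same fit. No member passed the threshold in either direction (0 of 75 in edgeR and 0 in DESeq2), while 9.09% of all features were higher in cerebellum and 12% were lower. At an unadjusted p under 0.05, edgeR had 6 members higher in cerebellum and 1 lower, against 14.1% and 17.3% of all features, and DESeq2 had 0. The median member differed by 0.03 and the median of all features by 0.00. Mrps9 had the lowest value (-0.69 ± 0.28, log2, SE; adjusted p = 0.0859 in edgeR) and Mrpl34 the highest (0.68 ± 0.25, adjusted p = 0.0596). Mrpl46, of the central protuberance, differed by 0.65 (adjusted p = 0.0789 in edgeR). Mrpl34 passed with library totals (0.75, adjusted p = 0.0407), and Mrpl46 passed without the genotype block (0.58, adjusted p = 0.0265).

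Knockout and wild type were compared across the 3 tissues in an edgeR fit of 11557 features with tissue as a block. No mitochondrial ribosomal protein passed this test. At an adjusted p under 0.05, 0 of 75 members were higher in the knockout and 0 were lower, where 0.00865% of all features were higher and 0.0865% lower. At an unadjusted p under 0.05, 4 members were higher and 1 lower, against 2.02% and 2.86% of all features, and DESeq2 gave 0 members at either threshold. The median member was 0.06 and the median of all features -0.00, with 50 of 75 members above 0 where 49.3% of all features were. Under the other settings tried, members above 0 ran from 36 of 75 without hippocampus to 53 of 75 with DESeq2 size factors. With library totals they numbered 41 of 75. Because a genotype has 1 library per tissue, these p-values rest on how alike the tissues are, and the spread between animals was not measured.

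The 5 members at an unadjusted p under 0.05 lie in different regions of the ribosome. Mrps34, specific to mitochondria and needed for a stable small subunit, had cerebellar values of 24.5 and 12.7 CPM, hippocampal values of 23.2 and 19.3, and liver values of 51.6 and 40.5. The knockout value was the higher in each tissue, and the fitted difference was 0.52 ± 0.20 (log2, SE; adjusted p = 0.952 in edgeR). Most of it came from cerebellum, where the ratio was 1.94-fold, against 1.2-fold in hippocampus and 1.27-fold in liver. Its exons share 763 bases on the same strand with Nme3, whose own log2 ratios (cerebellum, hippocampus, liver) were 0.24, 0.23 and -0.17.

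Mrpl53, near the base of the stalk, stood at 24.2 and 18.1 CPM (cerebellum), 25.5 and 15.4 (hippocampus) and 35.5 and 33.4 (liver). Its fitted difference was 0.43 ± 0.20 (log2, SE; adjusted p = 0.999 in edgeR), and its exons share 695 bases on the same strand with the predicted gene Gm42688. Mrps6 differed by 0.38 and Mrpl4, which lies near the exit tunnel in bacteria, by 0.31, both with an adjusted p of 0.999 in edgeR. Mrps9 was the 1 member of the 5 with lower knockout values, by -0.44 ± 0.18 (log2, SE; adjusted p = 0.993 in edgeR). Its knockout library was below the wild-type one in each tissue, with log2 ratios of -0.41 (cerebellum), -0.26 (hippocampus) and -0.92 (liver).

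Direction alone was counted for the 70 members with at least 10 CPM on average in each tissue. The knockout library was the higher in all 3 tissues for 13 of them and the lower for 6, and among all features the share was 13.4% in each direction. Beside Mrps34, Mrpl53, Mrpl4 and Mrps6, the 13 included Mrpl20, whose log2 ratios were 0.46 (cerebellum), 0.28 (hippocampus) and 0.19 (liver), and Mrpl14, with 0.22, 0.14 and 0.08. Mrpl47, at the exit tunnel, had 0.27, 0.37 and 0.04, and Mrps21 had 0.16, 0.32 and 0.04. Beside Mrps9, the 6 included Mrpl19, with -0.15, -0.30 and -0.31, and Mrpl3, with -0.35, -0.02 and -0.12. Most of these ratios lie within the counting error of their libraries. Scaled to library totals, 7 members were higher in all tissues and 9 lower. The 13.4% share was computed with TMM, and no share over all features was computed with library totals.

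**Figure D4:**
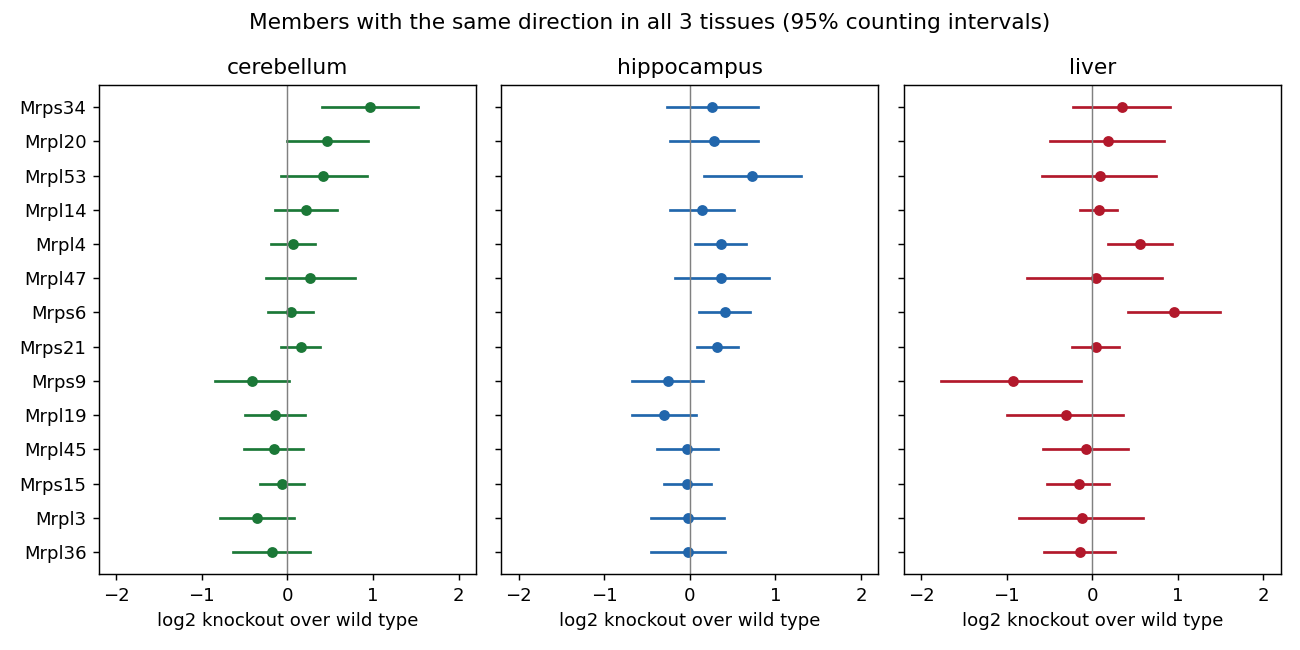
Log2 ratio of knockout over wild type in each tissue for the 8 members highest and the 6 lowest by their smallest ratio among those with 1 direction in all 3 tissues, with exact 95% counting intervals. Intervals of Mrps34 in cerebellum (ratio 0.96), Mrpl53 in hippocampus (0.73) and Mrps6 in hippocampus and liver (0.41 and 0.95) are among those clear of the line at 0, and most intervals cross it.

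Single tissues hold 1 library of each genotype and so no replicates, and their ratios are given with exact 95% Clopper-Pearson intervals, which cover counting error only. In cerebellum, 71 members reached a mean of 10 CPM. Their log2 ratios ran from -0.48 to 0.96 with a median of 0.02, and 38 were above 0, where 48.2% of all features were. Mrps34 alone reached 1.5-fold higher and no member reached 1.5-fold lower, against 1.6% and 2.36% of all features. Intervals above equality were found for Mrps12, Mrps14 and Mrps34 (6.98% of all features) and below it for Mrps26 (8.22% of all features). Mrps26 had 73.6 CPM in knockout and 103 CPM in wild type, a log2 ratio of -0.48 (interval -0.73 to -0.24), while in liver its ratio was 0.34. In cerebellum the 5 choroid plexus markers summed to 2503 CPM in the knockout and 3631 CPM in the wild type. The 5 red blood cell markers summed to 813 and 639 CPM. Hepatocyte markers summed to 300 and 558 CPM and neutrophil markers to 62.8 and 29.2 CPM. Oligodendrocyte markers summed to 3433 and 4674 CPM, though 3 of these 5 were higher in the knockout. The part of these markers in the ratios was not tested.

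In hippocampus, 72 members reached 10 CPM on average, with a median log2 ratio of 0.16, while the median of all features was 0.01. The knockout was the higher for 47 and the lower for 25, and 51.5% of all features had a ratio above 1. At least 1.5-fold higher were Mrpl53, Mrpl17, Mrpl23 and Mrps27, and none was 1.5-fold lower, against 4.72% and 4.13% of all features. With DESeq2 size factors 1 member reached 1.5-fold higher, a scaling for which no share over all features was computed. Mrpl17, a large subunit protein with a bacterial homologue, had 64.6 CPM in knockout and 42.3 in wild type, a log2 ratio of 0.61 (interval 0.28 to 0.95). Mrpl23, at the mouth of the exit tunnel, had 64.3 and 42.3 CPM, a log2 ratio of 0.60 (interval 0.27 to 0.95). Intervals lay above equality for 11 members, namely Mrpl17, Mrpl23, Mrpl30, Mrpl38, Mrpl4, Mrpl49, Mrpl52, Mrpl53, Mrps18a, Mrps21 and Mrps6, and below it for 0, where 12.4% and 10.6% of all features had them. The median was 0.21 for Mrpl and 0.06 for Mrps genes. Sums of markers of other cells differed as well. Knockout and wild-type sums were 290 and 1375 CPM for hepatocytes, 152 and 396 CPM for choroid plexus and 211 and 139 CPM for red blood cells. The log2 ratio of the choroid plexus sum was -1.38, while the median over the 3 markers with enough tags was -0.11. In liver the same list summed to 38654 and 26862 CPM, with 4 and 2 of its 5 genes at 0, so its sum is not particular to choroid plexus. The part of all these markers in the ratios was not tested.

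In liver, 75 members reached 10 CPM on average. Their ratios spread more widely than in the brain tissues, from -1.22 to 0.95 on the log2 scale, with a median of 0.03 and -0.01 for all features, and 40 were above 0 where 49% of all features were. At least 1.5-fold higher were Mrps6 and Mrps18c, against 7.28% of all features, and 1.5-fold lower were Mrpl1, Mrps27, Mrps9 and Mrps22, against 12.7%. With DESeq2 size factors 7 members were 1.5-fold higher and 3 lower, and with library totals 2 and 6. The shares over all features were computed with TMM only. Mrps6 had 70.9 CPM in knockout and 36.6 in wild type, a log2 ratio of 0.95 (interval 0.42 to 1.49). Mrps18c, 1 of 3 related proteins that arose from a single bacterial one, had 121 and 68.1 CPM, a ratio of 0.83 (interval 0.44 to 1.23). Its relative Mrps18a had a ratio of -0.15, so these relatives did not stand together.

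Mrpl1, which forms the mobile stalk beside the exit of the tRNAs, had the lowest ratio in liver. It had 18 tags in knockout and 70 in wild type, or 19.3 and 45 CPM, a log2 ratio of -1.22 (interval -2.05 to -0.45). In cerebellum its ratio was 0.04 and in hippocampus -0.16. Mrps27 had liver values of 14 and 30.2 CPM, a log2 ratio of -1.11 (interval -2.12 to -0.20), and its ratios in cerebellum and hippocampus were 0.41 and 0.60. Intervals above equality were found for 8 members (Mrpl33, Mrpl34, Mrpl4, Mrpl43, Mrpl52, Mrpl54, Mrps18c and Mrps6) and below for 4 (Mrpl1, Mrpl17, Mrps27 and Mrps9), where 12.5% and 10.1% of all features had them. Knockout liver was the shallowest library, with 1774523 gene tags against 2727523 in wild type. The 5 red blood cell markers summed to 996 and 531 CPM there, and the 4 neutrophil markers to 61.2 and 33.4 CPM. The part of depth and of these markers in the ratios was not tested.

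**Figure D5:**
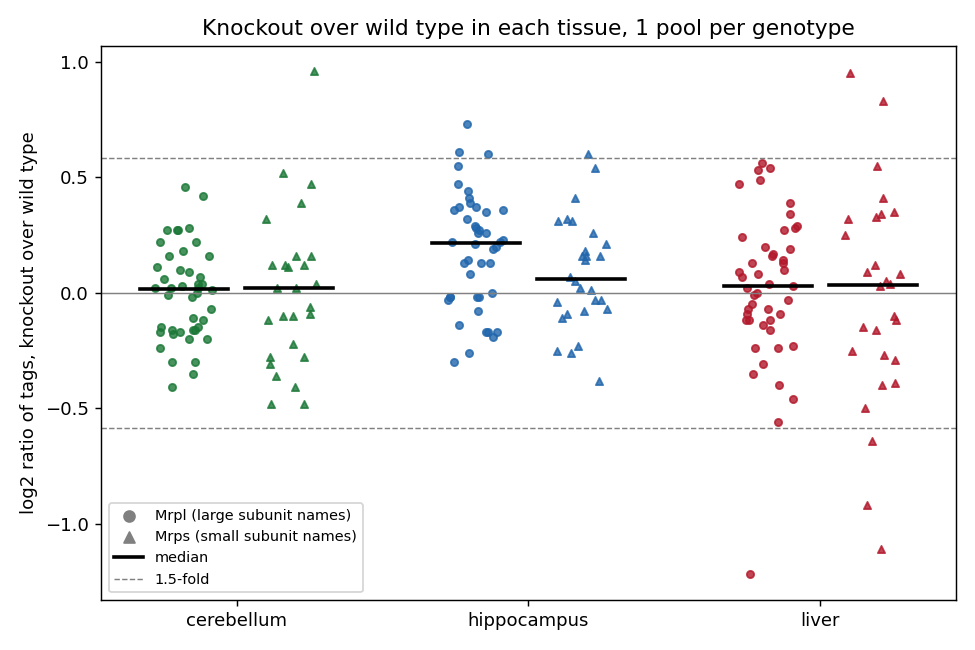
Log2 ratio of knockout over wild type for each member in each tissue, with circles for Mrpl and triangles for Mrps genes, horizontal bars for medians and dashed lines at 1.5-fold. Points gather around 0 in cerebellum and liver, the median of Mrpl genes in hippocampus is 0.21, and the widest spread is in liver, from -1.22 (Mrpl1) to 0.95 (Mrps6).

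By region of the ribosome, no single member of any group passed the genotype threshold, and the groups as such were not tested. The median fitted difference between knockout and wild type was 0.04 for the 5 members of the stalk region, 0.09 for the 7 of the exit tunnel, 0.04 for the 6 of the central protuberance and -0.02 for the 8 of the decoding and message path. It was 0.07 for Mrpl and 0.04 for Mrps genes, and 0.06 both for homologues of bacterial proteins and for proteins specific to mitochondria.

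Other genes of mitochondrial translation were set beside the members. Of the 7 ribosomal proteins under other names (Dap3, Ptcd3, Chchd1, Aurkaip1, Gadd45gip1, Ict1 and Mrp63), 0 passed the genotype test (0 at an unadjusted p under 0.05). In liver 5 were higher with TMM, and 1 higher and 4 lower with library totals. For this and the next lists, the shares over all features were 33.9% higher with TMM, and 16.7% higher and 66.4% lower with library totals. Gadd45gip1 had the largest difference between tissues, 1.63. The 9 translation factors gave 0 calls for genotype (1 at an unadjusted p under 0.05, lower in the knockout) and 6 higher in liver with TMM, against 1 higher and 2 lower with library totals. Tufm, the elongation factor that brings the tRNAs, was higher by 1.47 with TMM. Their median ratio within liver was -0.53 over the 8 factors at 10 CPM or more, lower than the 0.03 of the ribosomal proteins. The difference between these lists was not tested. Of the 14 assembly and rRNA modification genes tested, 0 passed for genotype, and with TMM 6 were higher and 2 lower in liver, the latter being the helicase Dhx30 (-1.33) and the methyltransferase Mrm1 (-1.75). With library totals 0 of the 14 were higher and 6 lower. Of the 5 genes of mitochondrial transcription and message stability, 0 passed for genotype and 3 were higher in liver with TMM, with Lrpprc, which stabilises mitochondrial messages, at 1.40, while with library totals 0 were higher and 3 lower.

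The proteins of the cytosolic ribosome and of respiratory complex I gave the nearest comparison. In the cytosolic ribosome 47 of 76 genes had the higher value in the knockout in all 3 tissues and 0 the lower. Complex I had 15 of 35 and 0, the members had 13 and 6 of 70, and all features had 13.4% in each direction. These counts use TMM scaling, and those of the cytosolic ribosome and complex I were not repeated with library totals. Neither list held a gene past the genotype threshold (0 of 78 and 0 of 35 in edgeR), with 4 and 2 genes at an unadjusted p under 0.05. Median fitted differences were 0.19 for the cytosolic ribosome, 0.13 for complex I and 0.06 for the members. Between tissues the lists were closer, with medians of 0.97, 0.92 and 0.94 for liver against brain with TMM and of -0.28, -0.33 and -0.30 with library totals.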

How the data were processed

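MACE libraries from 6 pools were used. The authors deposited raw counts of tags per RefSeq record, sense and antisense, in 1 table of 6 libraries, per the file headers. Tables of 1 tissue each were compared with it and 0 rows differ. Per the submitters' processing notes, bases were called with CASAVA 1.8.2 and the build was mm9; the file names a GRCm38 set, and the aligner and counter are not given in the sources used here. Sample labels (hippocampus, months) were followed where the protocol text differs (midbrain, weeks).

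Sense counts were summed per symbol; rows of several genes stayed apart. Counts were tested with edgeR 4.0.16 (quasi-likelihood, TMM, filterByExpr, Benjamini-Hochberg over all features at 0.05), with DESeq2 1.42.0 as an alternative, in R 4.3.3. A count of 0 was set to 3 for ratios. Named genes were the 6 most and 6 least abundant members, the 10 largest calls per direction between tissues, the 4 highest and 4 lowest ratios in each tissue, up to 8 per direction with 1 sign in all 3 tissues, and members of fixed ribosome regions; others named (such as Mrpl30 or Mrps14) were chosen after their values were seen. The members and lists were chosen with earlier results of these data known. The fits were tested on simulated data, with 50 features altered at each fold. At 1.25-fold, 1.5-fold, 2-fold and 4-fold the genotype fit recovered 0, 16, 43 and 49 of them. The fit of liver against brain recovered 1, 15, 35 and 47. Unaltered features called numbered 4 in the genotype fit and 2 in the other. Alternatives were scalings, filters, blocks, tissues left out and shared rows. Promoter windows are RefSeq's on GRCm38.p6, and gene positions GENCODE M21's.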

Additional observations from a re-analysis of the deposited data

Results flagged for a closer look

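Mrpl17 had counting intervals on opposite sides of equality in hippocampus and liver. Hippocampus held 195 of its tags in the knockout and 118 in the wild type, and liver held 131 and 301. The log2 ratio of knockout over wild type was 0.61 in hippocampus (95% counting interval 0.28 to 0.95) and -0.46 in liver (interval -0.77 to -0.16), a gap of 1.07. The ratio in cerebellum was 0.06. With 1 library per genotype and tissue the difference between tissues was not tested. No group holds 4 or more samples, so no sample could be set against the others of its group.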

How the results depend on the processing

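No paired analysis was possible because every group has the single replicate number 1, so that number pairs nothing beyond the tissue, which is the block of the genotype fit. Across tissues, the alternatives run left 0 members past the threshold for genotype, and leaving out 1 tissue gave medians from -0.02 to 0.06. Of 26 members followed there, 7 had the opposite sign under 1 or more alternatives, none of them past the threshold. For liver against brain, library totals gave 10 higher, 29 lower and a median of -0.30. Members above 0 numbered 67 of 75 with TMM and 26 of 75 with library totals. Only the named members were followed singly. Among them the sign changed for Mrpl2 (-0.37), Mrpl20 (-0.75), Mrpl21 (-1.23), Mrpl23 (-0.53), Mrpl32 (-0.30), Mrpl4 (-0.80), Mrpl44 (-0.30), Mrpl45 (-0.87), Mrpl47 (-0.95), Mrpl53 (-0.53), Mrpl9 (-0.45), Mrps12 (-0.33), Mrps15 (-0.76), Mrps21 (-0.36), Mrps22 (-0.43), Mrps27 (-0.02), Mrps30 (-0.27) and Mrps34 (-0.07). Members lower in liver numbered 0 with DESeq2 and 0 without the genotype block. With no low-count filter the median relative to all features was 1.64, over more features. For cerebellum against hippocampus, library totals and the fit without the genotype block each gave 1 higher. With DESeq2 size factors, 1 member in hippocampus and 7 in liver reached 1.5-fold higher. The smaller of the other fold limits tried gave 6 members higher and 6 lower (cerebellum), 17 and 1 (hippocampus) and 14 and 11 (liver). A limit of 2-fold gave 0 higher in each tissue and 2 lower in liver. A minimum of 1 CPM gave 1 lower in cerebellum, and a minimum of 25 CPM gave 0 higher there and 2 in hippocampus. Members higher in all 3 tissues numbered 7 with library totals and 7 at 25 CPM. For these alternative counts of knockout over wild type, within tissues and in all 3 tissues, shares over all features were not computed. They therefore have no background beside them and are not a result about the members. The cause of these moves was not tested. Depth limits the members under 10 CPM most: Mrps18b had 1 to 4 tags per library.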
